A study of Homo sapiens with 4 samples.

Results

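RAB proteins are small GTPases that mark the membranes of the secretory and endocytic routes. Each cycles between a GDP-bound form in the cytosol and a GTP-bound form on its own compartment, where it recruits tethers, motors and coats. Exchange factors switch a RAB on, GTPase-activating proteins switch it off, and GDP dissociation inhibitors carry it between membranes. A RAB is held in the membrane by lipids joined to cysteines at its end, and it holds the phosphates of its nucleotide with a loop near its start, the P-loop. Hepatocytes secrete heavily, and this family is known there for its part in secretion, receptor recycling and lysosomal delivery.

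The RAB genes were taken as those with a protein-coding transcript listed under a symbol made of RAB, a number and an optional letter and digit, which gave 51 of the 11665 genes with a protein-coding row. They were listed with 102 protein-coding transcripts, which were summed per gene, and with 9 processed transcripts, which were not. RNA had been sequenced from HCCLM3, a human hepatoma cell line, infected with lentivirus that carried either a control short hairpin RNA, in 2 shCtrl samples, or a KIAA1429 hairpin, in 2 shKIAA1429 samples. KIAA1429, now named VIRMA, is a member of the complex that writes N6-methyladenosine on RNA, and the comparison asked which transcripts differ in level when it is depleted. Values are FPKM, fragments scaled to transcript length and to the mapped total of the library, so that levels can be set side by side between genes. Below, values given for 4 libraries stand in the order shCtrl replicate 1, shCtrl replicate 2, shKIAA1429 replicate 1 and shKIAA1429 replicate 2.

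The summed FPKM of all listed transcripts was 370250 to 390220 in the 4 libraries. VIRMA itself was listed at 9.02, 14.1, 5.81 and 8.52 FPKM, lower in both shKIAA1429 libraries. The log2 fold change was -0.61, with a 95% interval from -1.36 to 0.14 and an adjusted p of 0.897 by limma. An exact two-sided permutation test of 2 against 2 gave p = 0.333, the smallest it can give. Leaving out shCtrl replicate 2 brought the change to -0.31, and leaving out shCtrl replicate 1 brought it to -0.91. Of 12 hepatocyte markers 1 was among the rows used here, SERPINA1 at 3.34 to 5.63 FPKM, so the hepatic origin was taken from the name of the cell line. The keratins KRT8 and KRT18, of simple epithelia, were listed at 970.7 to 1170 FPKM, and the mesenchymal markers COL1A1 and DCN summed to between 4.59 and 7.02 FPKM. The other markers checked, among them EPCAM and CDH1 of epithelia, PTPRC of leukocytes and PECAM1 of endothelium, had no row among those used here.

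The sequences that carry the transcript results are given first. The coding sequence was complete for 89 of the RAB transcripts, from 50 genes, in the GENCODE 44 annotation lifted to GRCh37. The last 30 coding bases are given for 8 members, chosen as abundant genes or as those with the smallest p, with the stop codon at the right. Capitals mark cysteine codons (TGT or TGC, in frame, coding strand) among the last 5 codons before the stop. Such a codon was present in 87.6% of the complete RAB transcripts, against 10.5% of the 23712 complete coding sequences of all listed transcripts. At most 2 were found in any transcript, and 9 genes had no transcript with more than 1. The members lie at chr11:66036004-66044963 (RAB1B-201, plus strand), chr17:40276994-40307035 (RAB5C-201, minus), chr3:128444965-128533639 (RAB7A-201, plus), chr19:8455083-8469318 (RAB11B-201, plus), chr10:27793197-27831143 (RAB18-201, plus), chr19:11432722-11450344 (RAB3D-201, minus), chr19:16222439-16245044 (RAB8A-201, plus) and chr1:153954127-153958828 (RAB13-201, minus), all in GRCh37, and each stretch is exonic and coding.
RAB1B-201: gtaaagccggctggcggtggcTGTTGCtag
RAB5C-201: gccagccggagccagTGCTGCagcaactga
RAB7A-201: aaggcctcggcagaaagcTGCagtTGCtga
RAB11B-201: aacaagctgcagTGCTGCcagaacctgtga
RAB18-201: gcctgtggtggttatTGCtctgtgttataa
RAB3D-201: gccccccagcccagcagcTGCagcTGCtag
RAB8A-201: agcagctttttccgaTGTgttcttctgtga
RAB13-201: aagaacaccaacaagTGCtccctgggctga
The pair of cysteine codons was adjacent in RAB1B, RAB5C and RAB11B, and set apart by another codon in RAB7A and RAB3D. RAB18, RAB8A and RAB13 held a single such codon.

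Some genes were listed with transcripts of both kinds, with and without an end cysteine codon. They are shown as pairs because their shares of the gene's FPKM are described further on. RAB15 lies at chr14:65412532-65439132 (minus strand), RAB34 at chr17:27041299-27045447 (minus strand) and RAB35 at chr12:120532899-120554643 (minus strand).
RAB15-203: gcgaactcttcgaaaaccTGCtggTGCtga
RAB15-201: tcaacattaaagagtcattcacgcgtctga
RAB34-204: agcaagaagaagcccacaTGTTGCccatga
RAB34-226: ctcaagccatcatcattgtcttcaacctga
RAB35-201: aacagtaaacgaaagaaacgcTGCTGCtaa
RAB35-202: cgatgtggtgaagctcacgaagaacagtaa
In each pair the second transcript ended on coding bases with none of these codons. RAB34-226 differed from RAB34-204 over most of its coding sequence. By position 308 of its 750 coding bases were shared, and only 3 bases were alike at either end. Sharing by position does not show that these bases are read in the same frame. In total 11 of the 89 complete transcripts, from 7 genes, had none.

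The P-loop was searched for in frame on the coding strand as a glycine codon (GGN), any 4 codons, a glycine codon, a lysine codon (AAA or AAG) and a serine or threonine codon. It was found in 85.4% of the complete RAB transcripts and in 5.06% of all complete coding sequences. The stretch is given for members whose other transcripts lack it or whose level is described below, with the fixed codons in capitals.
RAB7A-201: GGAgattctggagtcGGGAAGACA
RAB18-201: GGCgagagtggggtgGGCAAGTCC
RAB13-201: GGGgactcgggggtgGGCAAGACT
RAB34-204: GGGgacctgtcggtgGGGAAGACT
There was no match in RAB13-205, RAB34-206 or RAB34-226, nor in any listed transcript of RAB40B and RAB40C. A missing match says only that these letters were not found in frame in the coding sequence given by the annotation.

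RAB6A, which acts in traffic through the Golgi, was listed with 2 transcripts of equal coding length (627 bases) that differed at 31 bases, all between codons 62 and 93. The 96 bases of that stretch are shown with the differing bases in capitals, from RAB6A at chr11:73386683-73472182 (minus strand).
RAB6A-201: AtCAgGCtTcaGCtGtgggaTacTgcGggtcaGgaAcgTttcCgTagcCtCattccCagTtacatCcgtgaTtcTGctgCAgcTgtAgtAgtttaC
RAB6A-202: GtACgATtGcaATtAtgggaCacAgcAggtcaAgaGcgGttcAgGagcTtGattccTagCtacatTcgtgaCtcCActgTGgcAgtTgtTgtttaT
RAB6A-201 was the more abundant transcript in every library, at 13.3, 9.11, 12.6 and 9.89 FPKM, while RAB6A-202 was listed at 4.63, 5.17, 4.64 and 4.61 FPKM. The share of RAB6A-201 in the gene's FPKM was 74.1%, 63.8%, 73.1% and 68.2%, and the groups overlapped. The transcripts shared 95% of the exonic bases of RAB6A-201 and 96.8% of those of RAB6A-202, so the split rests on few bases.

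To describe the family as a whole, the levels of its members were ranked. The 51 genes summed to 737.9, 755.0, 709.0 and 745.9 FPKM in the 4 libraries, which was 0.259%, 0.261%, 0.241% and 0.258% of the FPKM of all protein-coding rows. A few members made up most of this sum. The 5 highest genes took 50.96% to 53.4% and the 10 highest 73.8% to 74.5% of the family's FPKM in a library. The mean of the 4 libraries was over 10 FPKM for 14 members, from 2 to 10 FPKM for 20 and under 2 FPKM for 17.

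**Figure D1:**
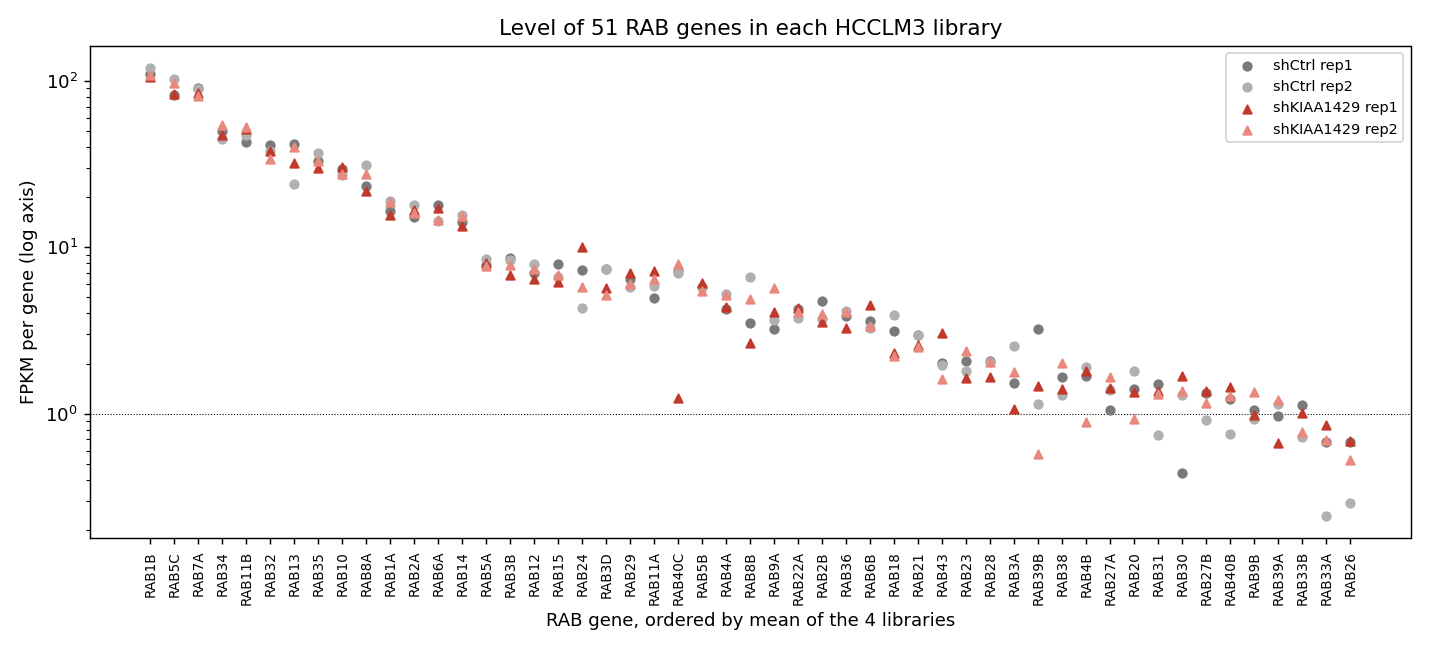
FPKM of the 51 RAB genes (vertical log axis) in each of the 4 libraries, ordered by the mean over libraries; circles are shCtrl, triangles shKIAA1429, and the dotted line marks 1 FPKM. Levels run from about 111 FPKM (RAB1B) to under 1 FPKM (RAB26), and the 4 points of a gene lie close together except for a few such as RAB40C and RAB39B.

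RAB1B, which controls traffic from the endoplasmic reticulum to the Golgi, was the highest member at 110.6, 119, 105 and 108.7 FPKM. RAB5C, which acts in early endosome fusion, followed at 82.3, 103.3, 83.6 and 97.0 FPKM. RAB7A, which directs late endosomes to lysosomes, was listed at 90.4, 89.4, 85.0 and 80.9 FPKM. RAB5C and RAB7A did not separate beyond their spread over libraries. The next members were RAB34, RAB11B, RAB32, RAB13, RAB35, RAB10 and RAB8A, whose means fell from 49.04 to 25.97 FPKM, and the values of each overlapped with those of its neighbour in this order except between RAB11B and RAB32.

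Within most subfamilies, a single paralog held the larger part of the FPKM in every library. RAB1B took 85.3% to 87.1% of RAB1, with RAB1A at 15.5 to 19.0 FPKM. RAB5C took 85.6% to 88.0% of RAB5, RAB11B took 87.8% to 89.6% of RAB11, and RAB8A took 82.6% to 89.2% of RAB8. RAB6A took 79.3% to 83.3% of RAB6 and RAB9A 75.3% to 80.8% of RAB9. In the RAB3 subfamily, of regulated secretion, RAB3B (45.9% to 52.7%) and RAB3D (35.2% to 42.4%) were near each other and RAB3A was the lowest (7.80% to 13.9%). RAB27A and RAB27B, which tether secretory granules, were also close, RAB27A taking 44.3% to 60.1%. The paralogs were distinct in coding sequence. Of 1225 pairs aligned, RAB40B and RAB40C were the most alike, with 78.8% of the bases of the longer sequence identical and a longest identical run of 55 bases, while RAB1A and RAB1B shared 74.9% with a longest run of 16 bases.

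The groups were then compared gene by gene. Of the 51 members 49 reached 1 FPKM in at least 2 libraries and were tested, together with all other genes, on log2(FPKM + 1) with limma. RAB26 and RAB33A, with means under 1 FPKM, were not tested. None of the 49 passed both thresholds (an adjusted p under 0.05 with a log2 fold change of more than 1 in size), and neither did any of the 10781 genes tested (0%). The lowest adjusted p of a member was 0.838, and that of any gene 0.244. At an unadjusted p under 0.05, 2 members were lower (4.08%, against 2.82% of all genes) and 0 were higher (against 3.11% of all genes). No member had a log2 fold change over 1 in size, against 1.25% of all genes. Low values are understated on this scale, and in bulk RNA fewer cells with a transcript and less of it per cell cannot be told apart.

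The differences were small on both sides of 0. Of the tested members 20 were higher and 29 lower in shKIAA1429, the latter 59.2% against 52.5% of all genes. The median log2 fold change was -0.03 for the members and -0.01 for all genes. The median absolute change was 0.13 for the members and 0.14 for all genes, and the median gap between replicates was 0.16 in shCtrl and 0.18 in shKIAA1429 for the members. The 95% interval lay wholly between -1 and 1 for 43 of the 49 members (87.8%, against 83.0% of all genes). Because 1 is added to FPKM, a change of 1 on this scale exceeds a doubling or halving of FPKM, above all in low members. The interval of RAB33B, with a mean of 0.910 FPKM, reached -0.52, which takes in a halving of its FPKM. The interval reached past a bound for the other 6, namely RAB24, RAB40C, RAB8B, RAB3A, RAB39B and RAB30.

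**Figure D2:**
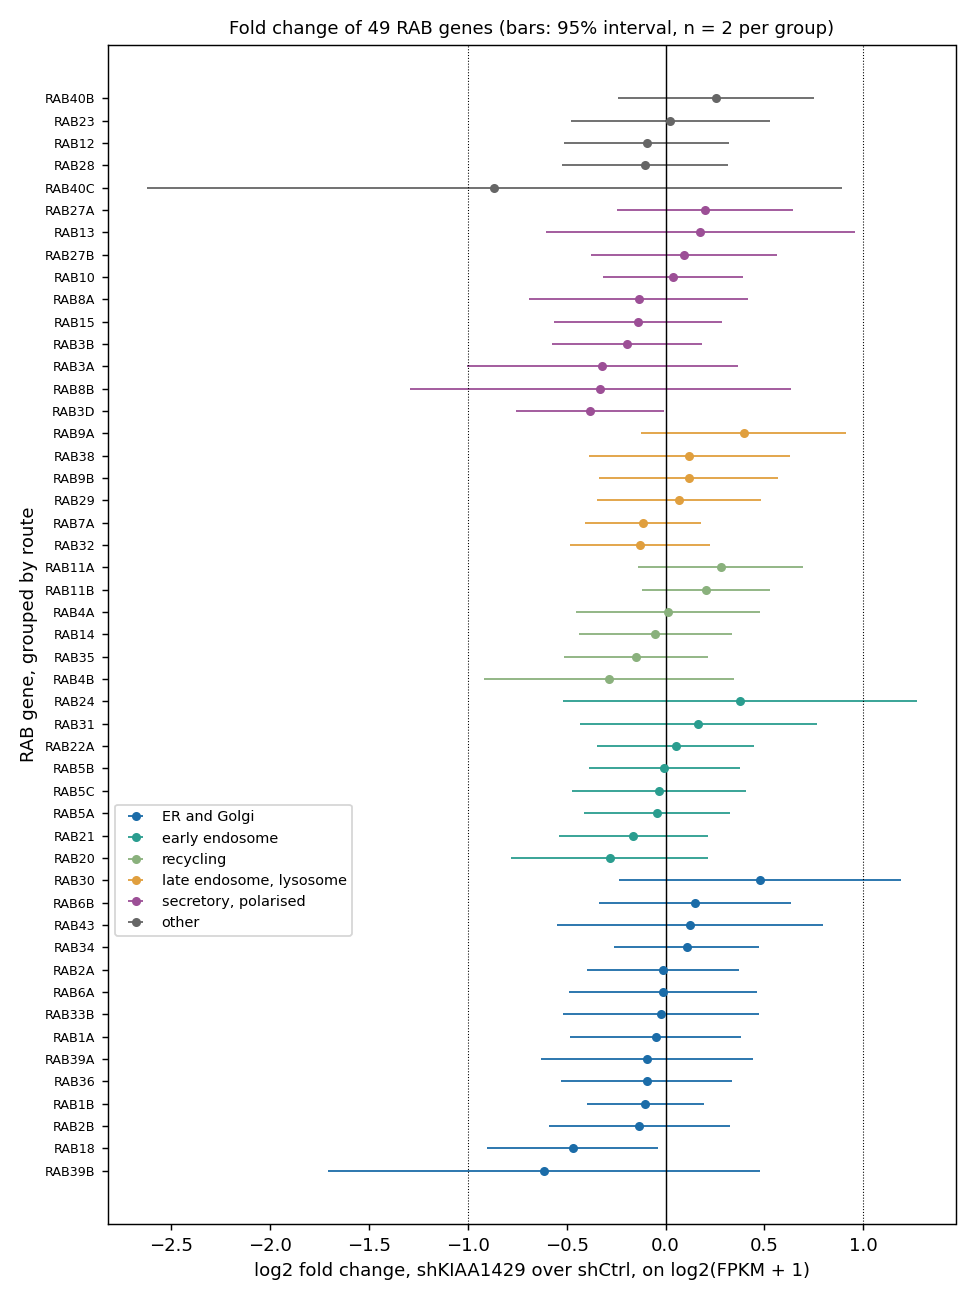
Log2 fold change of shKIAA1429 over shCtrl on log2(FPKM + 1) (horizontal axis) for the 49 tested RAB genes, coloured by assigned route. Points are limma estimates, bars 95% intervals from 2 samples per group, and dotted lines mark -1 and 1. The bars of RAB18 and RAB3D alone stay below 0, before adjustment over genes, and the bar of RAB40C is the widest.

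Both shKIAA1429 libraries lay below both shCtrl libraries for 7 members (14.3%, against 17.1% of all genes), and above them for 6 (12.2%, against 16.6% of all genes). The lower members were RAB1B, RAB7A, RAB3B, RAB3D, RAB18, RAB21 and RAB20. The higher members were RAB11A, RAB11B, RAB9A, RAB27A, RAB30 and RAB40B. These shares did not exceed those of all genes.

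Along the route from the endoplasmic reticulum through the Golgi, 4 of 14 tested members were higher and 10 lower, with a median log2 fold change of -0.04 and none past the thresholds. RAB18, which sits on lipid droplets and the endoplasmic reticulum, had the smallest p of the family. Summed over protein-coding rows it was listed at 3.15, 3.91, 2.30 and 2.22 FPKM, and the groups did not overlap. The log2 fold change was -0.47 ± 0.16 (SE), with an unadjusted p of 0.0382 and an adjusted p of 0.838 by limma. The shorter RAB18-202 was listed at 0.967, 1.49, 0.541 and 0 FPKM, and the longer RAB18-201 at 2.19, 2.42, 1.76 and 2.22 FPKM. The groups overlapped for RAB18-201, whose log2 fold change was -0.15 (adjusted p = 0.991 by limma). With the processed transcripts added RAB18 came to 3.88, 5.33, 2.58 and 4.04 FPKM, and its groups overlapped. RAB39B was listed at 3.25, 1.14, 1.47 and 0.569 FPKM and RAB30, a Golgi member, at 0.440, 1.29, 1.69 and 1.37 FPKM. The RAB39B groups overlapped, and RAB39B had the widest gap between the shCtrl replicates of any member (0.99 on the log2 scale). RAB1B, the most abundant member, had a log2 fold change of -0.10 with an interval from -0.40 to 0.19.

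Among the early endosome members 3 of 8 were higher and 5 lower, with a median of -0.02. The 95% intervals of the RAB5 genes ran from -0.47 to 0.41 for RAB5C, from -0.41 to 0.32 for RAB5A and from -0.39 to 0.38 for RAB5B. RAB20 was listed at 1.40, 1.80, 1.35 and 0.929 FPKM, and RAB21, which takes part in integrin endocytosis, at 2.98, 2.95, 2.59 and 2.50 FPKM. Their groups did not overlap, with log2 fold changes of -0.28 and -0.16 and intervals that included 0.

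Of the 6 recycling members 3 were higher and 3 lower. RAB11A and RAB11B, which return receptors from the recycling endosome to the surface, were both higher in shKIAA1429. RAB11B was listed at 43.1, 47.0, 51.4 and 52.6 FPKM and RAB11A at 4.98, 5.87, 7.16 and 6.40 FPKM. The groups of both genes were apart, but the differences were not past the test, with log2 fold changes of 0.20 (adjusted p = 0.936 by limma) and 0.28 (adjusted p = 0.928 by limma). RAB35, which also acts in endocytic recycling, was listed at 33.0, 36.9, 29.8 and 33.0 FPKM, and its groups overlapped.

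In the late endosome and lysosome list 4 of 6 members were higher and 2 lower, with a median of 0.09. RAB9A, which acts in transport from late endosomes to the Golgi, was listed at 3.21, 3.66, 4.08 and 5.68 FPKM. Its log2 fold change of 0.40 had an interval from -0.12 to 0.91. RAB7A was lower in both shKIAA1429 libraries by a small amount, with a log2 fold change of -0.115 and an interval from -0.41 to 0.18. RAB32, which takes part in the making of lysosome-related organelles, was listed at 41.0, 37.7, 37.9 and 33.8 FPKM, and its groups overlapped.

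Of the secretory and polarised transport members 4 of 10 tested were higher and 6 lower, with a median of -0.14. RAB3D, which is found on secretory granules, was listed at 7.44, 7.35, 5.73 and 5.19 FPKM. The groups did not overlap, and the log2 fold change was -0.38 ± 0.14 (SE), with an unadjusted p of 0.0477 and an adjusted p of 0.840 by limma. RAB3B, a close paralog, was listed at 8.58, 8.42, 6.85 and 7.77 FPKM with a log2 fold change of -0.20. RAB27A was the only member of the list with both shKIAA1429 libraries above both shCtrl libraries, at 1.06, 1.38, 1.42 and 1.67 FPKM. RAB10 and RAB8A, which carry cargo to the plasma membrane, were listed at 29.4, 27.1, 30.5 and 27.5 FPKM and at 23.2, 31.4, 21.9 and 27.4 FPKM, and neither separated the groups. RAB13, which acts at tight junctions, was listed at 41.8, 24.2, 32.2 and 40.3 FPKM, a spread within shCtrl that exceeded the difference between the groups.

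The remaining members, RAB12, RAB23, RAB28, RAB40B and RAB40C, were assigned to none of these routes. RAB40C, which serves in a ubiquitin ligase, had the largest fold change of the family (-0.87), and it rested on 1 library. Its levels were 7.20, 7.04, 1.24 and 7.88 FPKM, with shKIAA1429 replicate 1 far below the other 3 libraries. Without that library the log2 fold change was 0.13. RAB40B was listed at 1.22, 0.752, 1.44 and 1.28 FPKM, with a log2 fold change of 0.26.

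**Figure D3:**
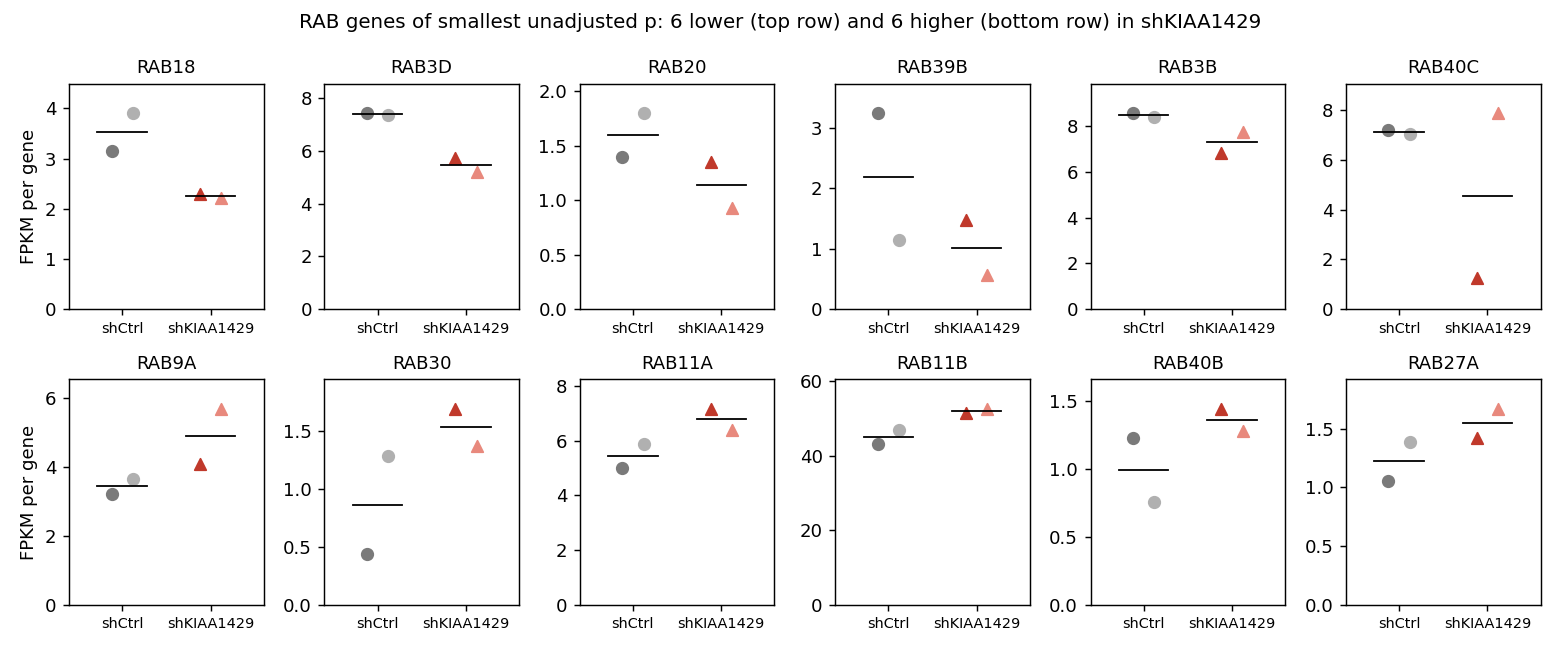
FPKM per gene, summed over protein-coding rows (vertical axes from 0), of the 6 lower (top row) and 6 higher (bottom row) RAB genes with the smallest unadjusted p; each point is a library and each line the mean of 2. RAB3D and RAB18 lie lower in both shKIAA1429 libraries, whereas for RAB40C a single library, at 1.24 FPKM, sets the mean of its group.

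The transcripts of a gene varied more between libraries than the gene's sum did. Of the 51 genes 24 were listed with more than 1 protein-coding transcript. The median range over the 4 libraries was 0.63 on the log2 scale for their 75 transcripts, against 0.32 for their sums and 0.34 for the 27 genes with a single transcript. The range was over 1 for 25 of these transcripts and for 3 of the sums. These ranges are given for RAB genes only, without the same ranges over all genes. Of the 66 RAB transcripts tested none passed both thresholds, as was the case for all 21292 transcripts tested (0%), and 1 had an unadjusted p under 0.05 (1.52%, against 6.38% of all transcripts).

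The split of RAB7A, listed with 5 protein-coding transcripts, was similar in the 4 libraries. RAB7A-201 took 42.5%, 41.3%, 39.4% and 43.3% of RAB7A, and the shorter RAB7A-203 took 51.4%, 52.0%, 53.1% and 50.1%. RAB7A-203 had 160 codons against 207, shared the first 260 and the last 225 coding bases with RAB7A-201, and so kept both the P-loop codons and the end cysteine codons. All of its exonic bases lay within RAB7A-201.

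In RAB15 the split turned over from library to library while the sum varied less. RAB15-201, the form without an end cysteine codon, was listed at 3.84, 0.250, 0.279 and 4.17 FPKM. RAB15-203, with the codons, was listed at 4.10, 6.36, 5.91 and 2.65 FPKM. The sum of RAB15 was 7.94, 6.61, 6.19 and 6.82 FPKM. A high and a low library of RAB15-201 were found in each group, and 96.1% of its exonic bases were shared with RAB15-203. In RAB8B and RAB40C both the split and the sum varied, the sums by 1.06 and 1.99 on the log2 scale over the libraries. RAB8B-201 took 39.7%, 98.0%, 41.3% and 22.5% of RAB8B. RAB40C-204 took 33.5%, 93.5%, 8.85% and 74.8% of RAB40C. In all, 31 transcripts of 14 genes had a share that ranged over more than 20 percentage points. The matching count over all genes is not given here, so this is not shown to be a trait of the family.

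**Figure D4:**
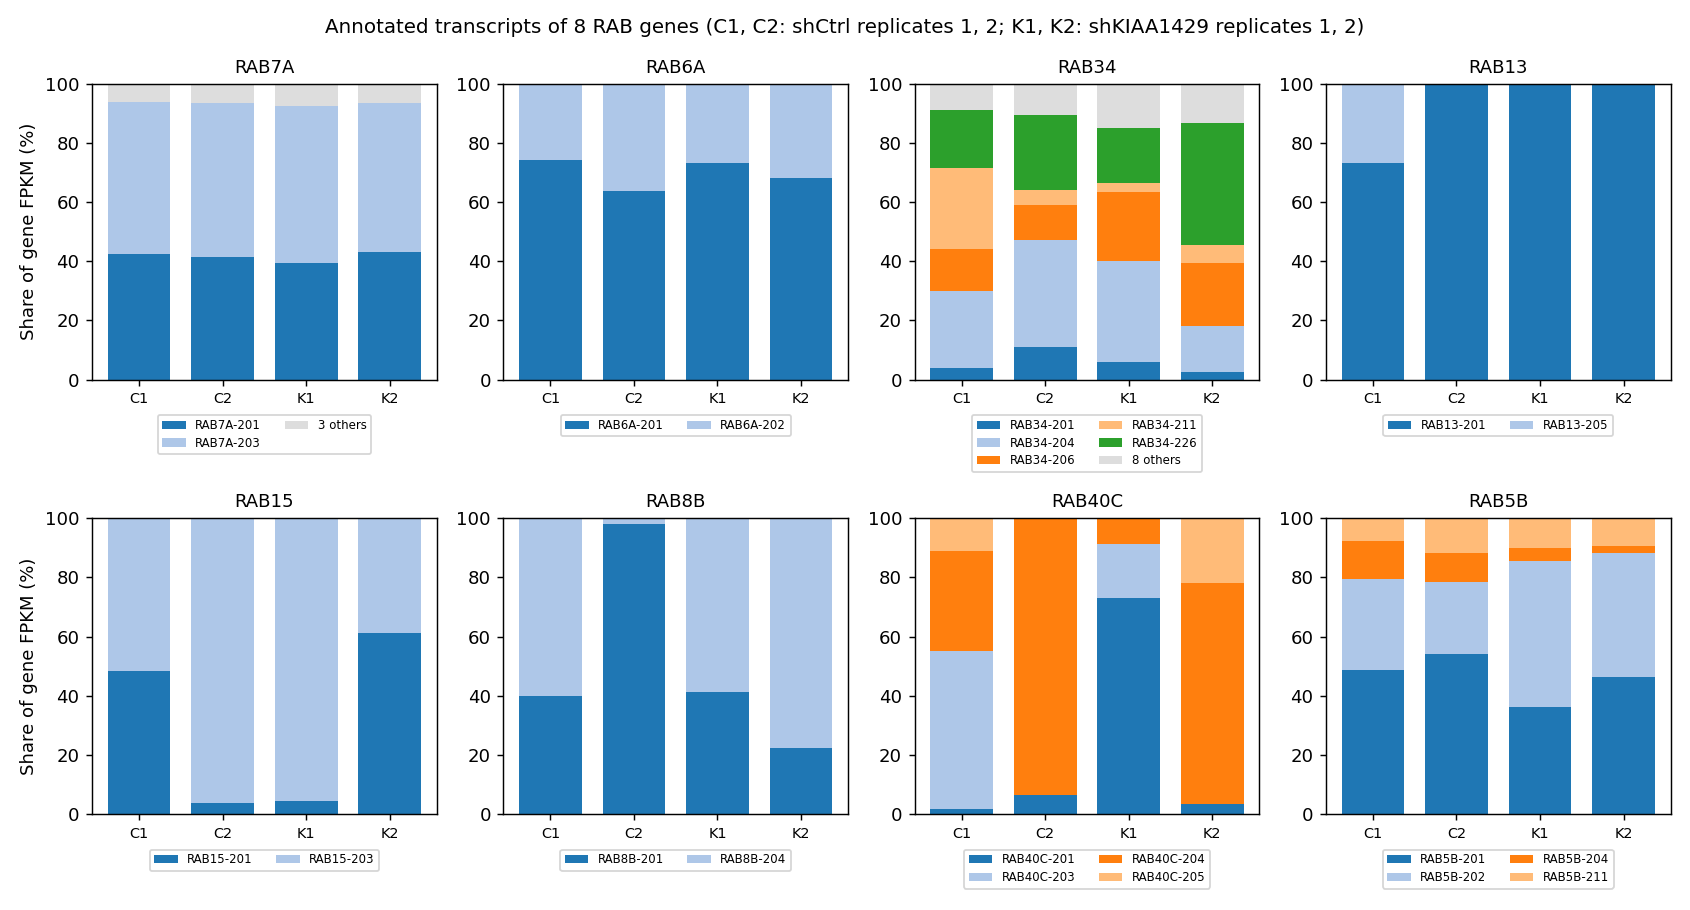
Share of the gene's FPKM (vertical axis, percent) taken by each annotated transcript of 8 RAB genes in the 4 libraries; grey stands for transcripts under 5% in every library. RAB7A and RAB6A keep similar splits in all 4 libraries, whereas in RAB15, RAB8B and RAB40C the leading transcript changes between replicates of a group.

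In members with several transcripts and a mean of at least 5 FPKM, 15 transcripts had shares that kept the groups apart. Those with the largest differences in share are given here, so their separation was a condition of the choice and not a result. The matching count over all genes is not given. RAB5B-202 took 30.8%, 24.5%, 49.3% and 41.9% of RAB5B, while the full-length RAB5B-201 took 48.6%, 54.0%, 36.4% and 46.2%. RAB5B-202 had 174 codons against 215 and the same end. All of its 1530 exonic bases lay within RAB5B-201, so the split does not rest on bases of its own. RAB34-206 took 14.3%, 11.7%, 23.5% and 21.4% of RAB34. It was listed at 7.13, 5.22, 11.2 and 11.6 FPKM and was the RAB transcript with the smallest p, 0.0208 (adjusted p = 0.587 by limma). RAB24-201 took 44.1%, 35.5%, 34.7% and 9.70% of RAB24, where shKIAA1429 replicate 2 stood apart. RAB13-205 took 26.8%, 0.444%, 0.218% and 0.248% of RAB13, with RAB13-201 as the rest, so that shCtrl replicate 1 alone set this difference. These shares were not tested.

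The end and P-loop features were weighed by FPKM. Transcripts with no end cysteine codon took 2.79%, 2.64%, 3.28% and 4.64% of the FPKM of the complete RAB transcripts. RAB34 contributed most, since its forms without the codon took 26.0%, 34.2%, 31.4% and 51.2% of its complete transcripts, and RAB34-226 alone was listed at 9.82, 11.4, 8.93 and 22.5 FPKM. Transcripts with no P-loop match took 5.55%, 3.79%, 4.55% and 6.45%. Both shKIAA1429 libraries lay above both shCtrl libraries for the first share, and the groups overlapped for the second. RAB34-226 in shKIAA1429 replicate 2 was the largest single value in the first share. In shKIAA1429 replicate 1 it lay below both shCtrl libraries, and the share without the codon within RAB34 overlapped between the groups. Neither share was tested or set beside the same share over all genes.

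Regulators and effectors of RAB proteins were followed as a list of 88 symbols, for which 80 gene entries were tested. RABGEF1 entered under separate gene identifiers, with log2 fold changes of -0.59 and 0.35. None of the entries passed both thresholds. At an unadjusted p under 0.05, 4 were lower and 1 was higher, in all 6.25% of the list against 5.93% of all genes, and the median log2 fold change was -0.02. The groups did not overlap for 20 lower (25%) and 8 higher (10%) genes of the list, against 17.1% and 16.6% of all genes. SYTL2, an effector of RAB27, was listed at 7.53, 7.75, 1.49 and 2.80 FPKM, with a log2 fold change of -1.49 and an adjusted p of 0.412 by limma. RAB11FIP5, an effector of RAB11, was listed at 5.98, 7.67, 9.26 and 14.9 FPKM, with a log2 fold change of 0.72 and an adjusted p of 0.840 by limma. The groups were apart for both genes over protein-coding rows. With all listed transcripts summed RAB11FIP5 came to 21.6, 13.1, 15.5 and 21.2 FPKM, where the groups overlapped, and its log2 fold change to 0.097.

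RIN2, an exchange factor for RAB5, and MLPH, which links RAB27A to myosin, differed between the groups in how FPKM was split over their transcripts. Summed over protein-coding rows, RIN2 was listed at 20.3, 17.9, 10.9 and 10.7 FPKM, with a log2 fold change of -0.76 and an adjusted p of 0.461 by limma. A processed transcript, RIN2-206 (chr20:19915769-19983101), was listed at 0, 0, 8.996 and 9.04 FPKM. With all listed transcripts summed RIN2 came to 20.9, 18.6, 20.3 and 20.9 FPKM, and the log2 fold change turned to 0.059. MLPH was listed at 23.96, 18.4, 31.1 and 27.0 FPKM, with a log2 fold change of 0.45 and an adjusted p of 0.855 by limma. Within it, MLPH-211 (chr2:238428578-238462599) was listed at 0, 0, 11.6 and 9.82 FPKM, and MLPH-209 at 9.81, 4.26, 0.943 and 0.669 FPKM. A processed transcript, MLPH-220, was listed at 0.948, 1.22, 13.2 and 11.99 FPKM, and with all listed transcripts summed MLPH came to 33.9, 25.3, 54.2 and 46.1 FPKM, with a log2 fold change of 0.75 (adjusted p = 0.709 by limma). These transcripts were chosen after their values were seen, and their exonic overlap with the other transcripts of the gene was not measured. Among all 38510 listed transcripts, 8 were at 0 in both shCtrl libraries and at 5 FPKM or more in both shKIAA1429 libraries, and 13 the other way round. None of the 111 RAB rows did either.

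**Figure D5:**
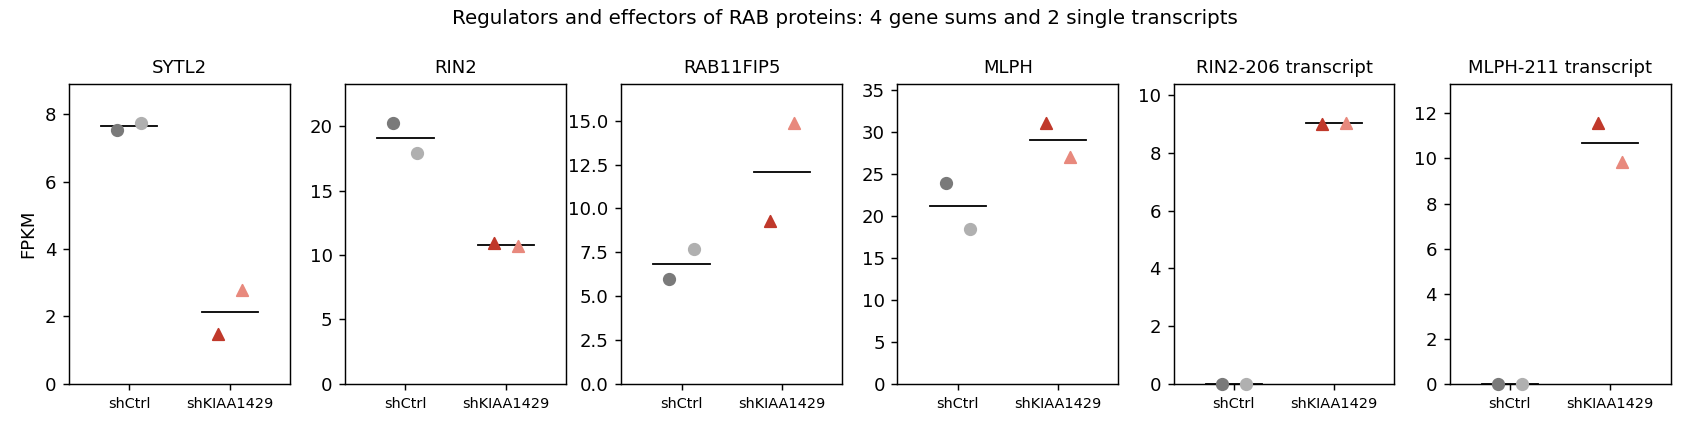
FPKM (vertical axes from 0) of 4 regulators and effectors of RAB proteins, summed over protein-coding rows, and of single transcripts of RIN2 and MLPH; each point is a library and each line the mean of 2. RIN2 lies between 17.9 and 20.3 FPKM in shCtrl and between 10.7 and 10.9 FPKM in shKIAA1429, while RIN2-206 is listed at 0 in shCtrl and near 9.04 FPKM in shKIAA1429.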

How the data were processed

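RNA-seq values of 2 shCtrl and 2 shKIAA1429 samples of HCCLM3 were used, and groups and replicate numbers were taken from the sample titles. Per the labels, the submitters' processing notes name Bowtie2 2.1.0 and the hg19 build, while the methods of the study describe paired-end libraries mapped with TopHat, counted with HTSeq and compared with DESeq. The authors deposited FPKM values per annotated GENCODE transcript, and the tool that made them is not given in the sources used here. Read counts were not analysed here, so depth per sample is unknown and no counting interval is given. The labels do not say that the samples came from separate cultures, so p-values measure the spread between these samples, which may be technical.

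Protein-coding rows were summed per gene. Genes with at least 1 FPKM in at least 2 samples were compared on log2(FPKM + 1) with limma 3.58.1 in R 4.3.3 (eBayes with trend, group only, two-sided), with Benjamini-Hochberg adjustment over the 10781 genes tested, or over 21292 transcripts. Calls needed an adjusted p under 0.05 together with a log2 fold change of more than 1 in size. The test was checked on simulated data with added changes larger than that of any RAB gene. That check does not bear on changes as small as theirs. The RAB genes, the routes, the regulators and the markers were chosen with earlier results of these data known. Genes were named as the 6 higher and 6 lower members of smallest p, the 10 most abundant members, those with the widest replicate range, and the 2 regulators of smallest p in each direction. Transcripts were named as the 6 largest differences in share, in members of at least 5 FPKM, whose groups do not overlap. Coding sequences came from GENCODE 44 lifted to GRCh37, where 101 of the 102 transcripts matched by identifier and 50 had the same ends. Pairs were aligned with Biopython 1.88, and matplotlib 3.10.9 under Python 3.11.15 made the figures. Alternatives were upper quartile scaling, other filters, a pseudocount of 0.1, blocking on replicate number, omitting each replicate in turn, all listed transcripts summed, a robust variance and either threshold alone.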

Additional observations from a re-analysis of the deposited data

How the results depend on the processing

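No RAB gene or transcript passed both thresholds under any alternative run. The median log2 fold change of the tested members was -0.03, and upper quartile scaling brought it to -0.010. Leaving out a replicate gave medians from -0.071 to -0.0031. The count of members whose groups do not overlap was 13, and it ranged from 25 to 39 when a replicate was left out, since fewer samples overlap less often. The VIRMA fold change ranged from -0.91 to -0.31 when a replicate was left out. Of the 25 followed genes, 6 turned direction under some alternative. RIN2 came to 0.059 with all listed transcripts summed. Leaving out a replicate gave -0.20 to 0.13 for RAB5C, -0.21 to 0.56 for RAB13, -0.034 to 0.11 for RAB10, -0.35 to 0.075 for RAB8A and -1.86 to 0.13 for RAB40C, whose change of sign came without shKIAA1429 replicate 1. With all listed transcripts summed, RAB11FIP5 dropped from 0.72 to 0.097 and MLPH came to 0.75, and of the members whose groups do not overlap RAB18 was lost and RAB2B gained.

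The groups share replicate numbers, but with 2 pairs and no label that ties equal numbers together the samples share only a number. The correlation of same-numbered deviations was 0.294. With the replicate block, 0 RAB genes passed both thresholds, and the adjusted p by limma was 0.458 for RAB18 and RAB3D and 0.371 for VIRMA. In this balanced design the block cannot change the fold changes, and the overlap of the groups does not use it.

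FPKM gives no depth, so the limit on low members such as RAB26 cannot be stated. The listed loci of 6 members overlap another listed gene, for example RAB43 with the readthrough ISY1-RAB43, and strand use in counting is not given in the sources used here.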
